A study of Mus musculus with 8 samples.

Results

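Lymphoid priming is the low, early expression of lymphocyte genes in progenitors that can still make other blood lineages. The lymphoid priming genes followed here are Dntt, Il7r, Rag1, Rag2, Ebf1, Satb1, Ighm, Ly6d, Cd27 and Tcf3, and their members were chosen by name, as the rows of the expression files that carry these symbols. Of the 10 symbols, 9 had a row among the 24346 genes of the files, and Ighm was not analysed here. RNA was sequenced from hematopoietic stem cells (HSCs, sorted as Lin- Sca-1+ c-Kit+ CD48- CD150+) and from LSK cells (Lin- Sca-1+ c-Kit+, a gate that also takes in the HSC phenotype) of wild-type C57BL/6 mouse bone marrow. Both populations were cultured for 1 day in serum-free medium with thrombopoietin and stem cell factor, either without red blood cells (RBCs) or with leukocyte-filtered, irradiated mouse RBCs. After hemolysis, CD45+ cells were sorted for RNA, and each of the 4 groups had 2 libraries, so 8 in all. The labels do not say whether the replicates came from separate mice or cultures, so p-values measure only the spread between these samples, which may be technical.

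In the marrow, lymphoid fate opens in multipotent progenitors that begin to transcribe the recombination machinery and the interleukin-7 receptor while they still carry c-Kit and Sca-1. E proteins such as E2A, the product of Tcf3, bind E-box motifs and open this program, and EBF1 later commits cells to the B lineage. Dntt encodes terminal deoxynucleotidyl transferase, which adds untemplated nucleotides at antigen receptor joints, and RAG1 and RAG2 together form the recombinase that cuts the receptor genes. Long-term HSCs are known to express little of this program.

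The cell-type contrast was large for 5 of these genes and small or absent for the rest. Dntt, Il7r, Rag2, Satb1 and Ly6d were between 6.81 and 68.4 times as abundant in LSK cells as in HSCs by mean FPKM over both cultures. Cd27 was 1.30 times as abundant, the ranges of Tcf3 overlapped between the populations, and Rag1 and Ebf1 stayed near 0 in every library. RBCs moved none of the genes of this set that were tested past the threshold. FPKM scales fragments by transcript length and by the fragments mapped in each library. Levels can thus be compared between genes and between libraries, but only approximately, as the FPKM totals still differed between libraries (below). In bulk samples such as these, fewer cells that express a gene and less of its RNA per cell cannot be told apart.

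The upstream sequences of the 4 genes with the clearest contrast, and of Rag1, the silent neighbour of Rag2, are printed here because E proteins are the known regulators of this program. Each is the 250 bases before a RefSeq transcription start (GRCm38.p6), 5′ to 3′ on the gene's strand, and capitals mark the general E-box CANNTG, searched on both strands.
Dntt: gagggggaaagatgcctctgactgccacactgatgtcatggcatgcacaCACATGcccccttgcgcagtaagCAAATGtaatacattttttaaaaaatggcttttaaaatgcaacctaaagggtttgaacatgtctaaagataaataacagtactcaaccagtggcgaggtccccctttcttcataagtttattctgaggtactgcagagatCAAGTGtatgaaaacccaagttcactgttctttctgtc
Il7r: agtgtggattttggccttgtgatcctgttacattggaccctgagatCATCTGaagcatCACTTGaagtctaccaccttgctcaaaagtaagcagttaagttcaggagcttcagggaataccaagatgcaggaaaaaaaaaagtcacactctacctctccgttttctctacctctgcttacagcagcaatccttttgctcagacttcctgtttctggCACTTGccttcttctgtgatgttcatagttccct
Rag2: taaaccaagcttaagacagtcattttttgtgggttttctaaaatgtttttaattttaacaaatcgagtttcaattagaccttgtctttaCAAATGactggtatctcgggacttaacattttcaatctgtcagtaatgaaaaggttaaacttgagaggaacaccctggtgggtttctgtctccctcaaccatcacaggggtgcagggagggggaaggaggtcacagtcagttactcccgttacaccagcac
Satb1: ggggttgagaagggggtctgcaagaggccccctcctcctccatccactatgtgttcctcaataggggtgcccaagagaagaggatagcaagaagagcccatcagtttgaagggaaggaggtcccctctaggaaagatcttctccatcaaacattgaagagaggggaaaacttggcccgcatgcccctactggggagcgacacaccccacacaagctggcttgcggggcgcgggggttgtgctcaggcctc
Rag1: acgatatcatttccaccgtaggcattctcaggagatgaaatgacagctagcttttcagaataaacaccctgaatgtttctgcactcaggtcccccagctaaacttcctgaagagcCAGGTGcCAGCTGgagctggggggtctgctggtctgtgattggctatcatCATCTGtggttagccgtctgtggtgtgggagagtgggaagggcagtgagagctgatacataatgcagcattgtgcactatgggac
These windows lie at chr19:41029025-41029274 (Dntt, + strand), chr15:9529877-9530126 (Il7r, - strand), chr2:101624462-101624711 (Rag2, + strand), chr17:51833291-51833540 (Satb1, - strand) and chr2:101649533-101649782 (Rag1, - strand). The Dntt, Il7r and Rag1 windows held 3 E-boxes each and the Rag2 window held 1. The printed Satb1 window, the first of 5 listed for that gene, held none, whereas the third held 2 E-boxes, one of them CAGGTG, and the fifth held 1 E-box and the motif TGGGAA. Among all 32851 windows of this length, 66.2% held at least 1 E-box. The E2A-type form CAGGTG, a subset of CANNTG, stood in 17.2% of all windows, and of the 5 printed windows only that of Rag1 held it. The Ikaros-type motif TGGGAA, present in 21.6% of all windows, also occurred in the Rag1 window. The palindromic EBF1 motif, present in 0.779% of all windows, was in no window of any member. A match describes the letters and is no evidence of binding. The Il7r window lies within the Il7r span given below, which comes from another annotation, so it may hold transcribed bases. Of the 9 genes with a row, 8 had a window in the table used.

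The libraries were of similar depth, by the relative depths given below. Their FPKM totals, which are scaled to mapped fragments and so do not measure depth, ran from 680942 to 752107. Their detected genes ran from 14829 to 16551. The absolute depth is unknown, but of 5365 weakly expressed genes (mean FPKM below 1) 4084 (76.1%) moved in whole steps across all libraries, within 0.01 of a step, which put the relative depths between 0.886 and 1.13. These steps were read as reads for Il7r, Rag1, Rag2 and Ly6d, and the true read numbers would be higher if a step stood for several reads. All 10 HSC markers had lower estimates in LSK cells in both cultures, with Slamf1 and Vwf past the threshold without RBCs and Fgd5 and Vwf with them. Over all genes tested the median difference was 0.0085 and 0.0075 on the log2 scale without and with RBCs. The threshold, defined below, was passed by 2.66% and 3.61% of them in either direction. Of the multipotent progenitor markers, Flt3, Cd48, Mpo and Ctsg were higher in LSK cells in both cultures, and the sort itself used CD48 and the product of Slamf1, CD150, so these genes are no independent check. Among mature lymphocyte markers, Ms4a1 reached at most 0.165 FPKM and Cd3e at most 0.0702, whereas Cd37 (44.6 to 127.5 FPKM), Cd79b (34.05 to 51.0) and Lck (10.1 to 15.4) were expressed in all libraries.

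**Figure D1:**
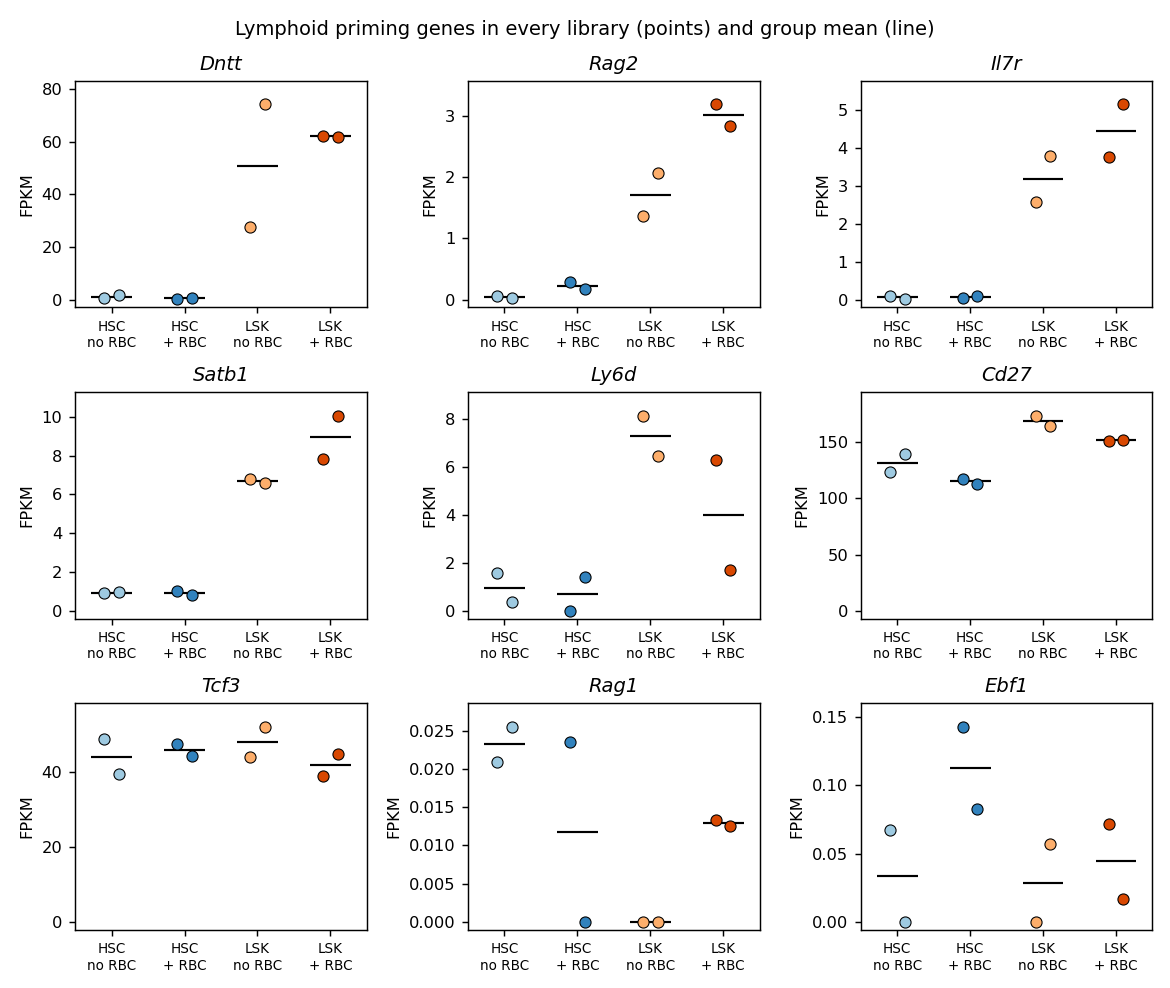
FPKM (y axis, linear from 0, own scale per panel) of the 9 genes with a row in the 8 libraries. Points are single libraries, lines are the means of the 2 libraries of a group, blue is HSCs and orange is LSK cells. For Dntt, Rag2, Il7r, Satb1, Ly6d and Cd27 all 4 LSK libraries lie above all 4 HSC libraries, Tcf3 overlaps, and Rag1 and Ebf1 reach at most 0.143 FPKM.

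The first comparison asked how the lymphoid genes differ between LSK cells and HSCs within each culture. Genes were tested on log2(FPKM + 1) with limma, and a call needed a change of 2-fold or more and a Benjamini-Hochberg adjusted p-value below 0.05. For weakly expressed genes this scale compresses the fold change. Of the 9 genes, 7 passed the filter of at least 1 FPKM in at least 2 libraries. Without RBCs 5 of these 7 were called, all higher in LSK cells, against 2.66% of all 12003 genes tested called in either direction and 1.62% called higher. With RBCs 4 of 7 were called, against 3.61% in either direction and 2.61% higher. In the average over cultures 5 of 7 were called, against 2.72% and 1.91%. Dntt, Il7r, Rag2 and Satb1 were called in both cultures and Ly6d only without RBCs, a difference between cultures that was itself not significant (below). Since a low gene passes the filter only where it is high, the count describes these genes and is not a rate for lymphoid genes at large.

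Dntt (chr19:41029275-41059525, + strand, protein coding) had the largest difference on the log2(FPKM + 1) scale. Its FPKM values were 0.691 and 1.67 in HSCs alone, and 0.368 and 0.579 in HSCs cultured with RBCs. In LSK cells it stood at 27.7 and 74.2 FPKM without RBCs and at 62.3 and 61.8 with them. The LSK libraries lay far above every HSC library, and the 2 LSK libraries without RBCs differed most from each other in FPKM. The log2 difference was 4.45 ± 0.378 (SE, adjusted p = 0.000122, limma) without RBCs and 5.42 ± 0.378 (adjusted p = 3.42e-05) with RBCs. In plain FPKM the LSK mean was 43.2 times the HSC mean without RBCs and 131 times with RBCs, and without RBCs the ratio of Il7r was larger, at 54.3. In LSK cells Dntt transcripts reached the level of Tcf3, and the ranges of both genes overlapped there.

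Rag2 (chr2:101624718-101632529, + strand) and Rag1 (chr2:101638282-101649501, - strand) are neighbours on chromosome 2 and are switched on together in developing lymphocytes. Here only Rag2 passed the filter. Rag2 in HSCs measured 0.0637 and 0.0259 FPKM without RBCs and 0.287 and 0.169 with them. In LSK cells it measured 1.36 and 2.06 FPKM without RBCs and 3.18 and 2.82 with them, so that no LSK library overlapped an HSC library. The log2 difference between LSK cells and HSCs was 1.36 ± 0.193 (SE, adjusted p = 0.00206, limma) without RBCs and 1.71 ± 0.193 (adjusted p = 0.000452) with RBCs. The reads behind these values were 57 and 96, then 118 and 111, in LSK cells, and 3 and 1, then 12 and 8, in HSCs. Corrected for relative depth, LSK cells had 37.1 times as many Rag2 reads as HSCs without RBCs (95% interval 14.2 to 138) and 13.4 times as many with RBCs (8.46 to 22.3). These intervals, exact for counts, cover counting error only.

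Rag1 stood at 0 FPKM in both LSK libraries without RBCs and at 0.0133 and 0.0125 in those with RBCs. In HSCs it stood at 0.0209 and 0.0255 FPKM without RBCs, and at 0.0235 and 0 with them. Each value rested on at most 2 reads, and 3 reads of Rag1 would have amounted to between 0.0312 and 0.0399 FPKM. Differences among levels this low could not be seen at this depth. Over both cultures there were 2 Rag1 reads in LSK cells and 6 in HSCs, a depth-corrected ratio of 0.354 with a 95% interval of 0.0349 to 1.98. The gap to Rag2 in the same LSK libraries was thus between reads of 57 to 118 and reads of 0 to 1. Both genes lie within the span of B230118H07Rik, whose annotated exons share 208 of the 3424 exonic bases of Rag2 (6.08%) on the other strand. They also share 80 of the 6608 exonic bases of Rag1 (1.21%), on the same strand. The libraries' strand setting is not given in the sources used here, so reads in the part shared with Rag2 cannot be told apart. Those in the part shared with Rag1 cannot be told apart under any setting. B230118H07Rik stood higher in HSCs (means of 11.99 and 12.1 FPKM without and with RBCs) than in LSK cells (8.75 and 7.94), with overlapping libraries without RBCs and none with RBCs.

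**Figure D2:**
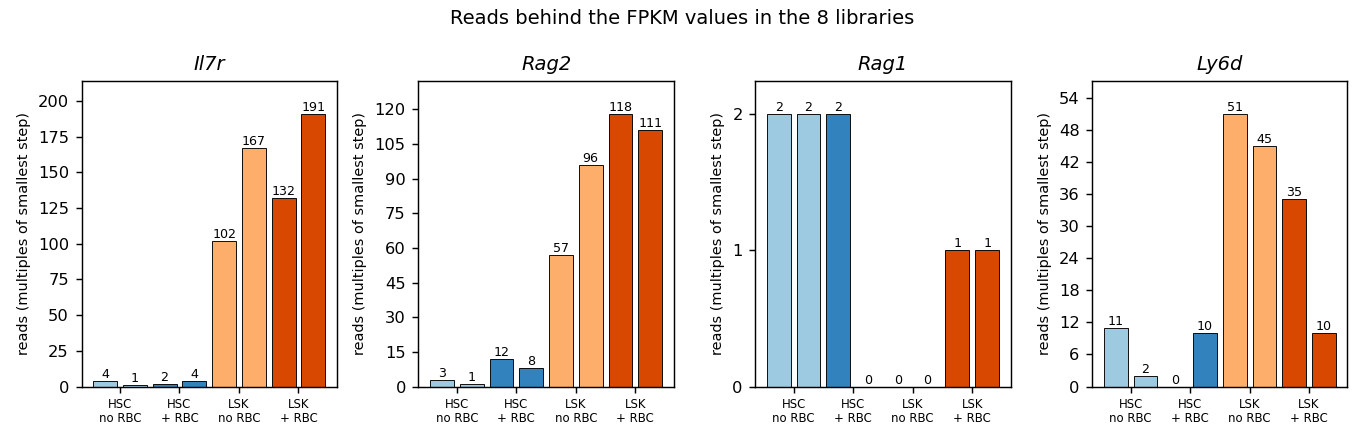
Reads behind the FPKM values of Il7r, Rag2, Rag1 and Ly6d in the 8 libraries, as multiples of the smallest step of each gene (y axis, linear from 0, own scale per panel). Bars are single libraries, labelled with their read number. Rag2 has 57 to 118 reads in LSK libraries and 1 to 12 in HSC libraries, whereas its neighbour Rag1 has at most 2 reads anywhere.

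Il7r (chr15:9505788-9530176, - strand) encodes the alpha chain of the receptor for interleukin-7, the cytokine that sustains early lymphocytes. It stood at 2.59 and 3.80 FPKM in LSK cells without RBCs and at 3.78 and 5.16 with them. In HSCs it stood at 0.0902 and 0.0275 FPKM without RBCs and at 0.0507 and 0.0896 with them. All HSC values rested on 1 to 4 reads, against 102 to 191 reads in LSK cells. The log2 difference was 1.97 ± 0.208 (SE, adjusted p = 0.000441, limma) without RBCs and 2.34 ± 0.208 (adjusted p = 0.000121) with RBCs. The depth-corrected ratio of LSK to HSC reads was 52.1 (95% interval 22.1 to 162) without RBCs and 62.9 (28.6 to 173) with RBCs.

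Satb1 (chr17:51736187-51833290, - strand) encodes a chromatin organizer that is known to favour lymphoid fate in progenitors. It stood at 6.77 and 6.59 FPKM in LSK cells without RBCs and at 7.85 and 10.1 with them. In HSCs it stood at 0.919 and 0.954 FPKM without RBCs and at 1.04 and 0.838 with them. Satb1 was thus close to 1 FPKM in every HSC library. The log2 difference was 1.99 ± 0.163 (SE, adjusted p = 0.000103, limma) without RBCs and 2.35 ± 0.163 (adjusted p = 3.38e-05) with RBCs.

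Ly6d (chr15:74762056-74763620, - strand) encodes a surface protein that marks B-biased lymphoid progenitors. It stood at 8.13 and 6.44 FPKM in LSK cells without RBCs and at 6.30 and 1.70 with them. In HSCs it stood at 1.56 and 0.346 FPKM without RBCs and at 0 and 1.41 with them. Every LSK library lay above every HSC library, but the lowest LSK value (10 reads) and the highest HSC values (11 and 10 reads) were close. The log2 difference was 2.15 ± 0.523 (SE, adjusted p = 0.0255, limma) without RBCs and 1.52 ± 0.523 (adjusted p = 0.0639) with RBCs, where it missed the threshold. Averaged over both cultures it was 1.83 ± 0.370 (adjusted p = 0.00516). The call without RBCs was lost in 6 of 16 alternative analyses, with adjusted p up to 0.143, among them the omission of either LSK library without RBCs or of the second HSC library without RBCs. With RBCs the difference was called when the second LSK library (2.23, adjusted p = 0.0305) or the second HSC library (2.15, adjusted p = 0.0368) was left out.

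Cd27 (chr6:125232622-125237010, - strand), a costimulatory receptor of lymphocytes that is also carried by multipotent progenitors, was the most abundant gene of the set in both populations. It stood at 174 and 165 FPKM in LSK cells without RBCs and at 151 and 152 with them. In HSCs it stood at 124 and 140 FPKM without RBCs and at 118 and 113 with them. The LSK libraries were all higher, by a small margin. The log2 difference was 0.36 ± 0.0732 (SE, adjusted p = 0.0115, limma) without RBCs and 0.39 ± 0.0732 (adjusted p = 0.00524) with RBCs, below the 2-fold needed for a call. Without the fold threshold 14.2% of all genes tested passed without RBCs and 24.4% with RBCs. The microRNA gene Mir8113 covers 129 of the 2328 exonic bases of Cd27 (5.54%) on the same strand, so reads in that part cannot be told apart.

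Tcf3 (chr10:80409514-80433647, - strand), which encodes the E2A proteins, stood between 39.0 and 52.0 FPKM in the 8 libraries. Its values were 43.9 and 52.0 FPKM in LSK cells without RBCs, 39.0 and 44.6 in LSK cells with RBCs, 48.7 and 39.4 in HSCs cultured alone and 47.4 and 44.2 in HSCs cultured with RBCs. HSC and LSK libraries overlapped in both cultures. The log2 difference between LSK cells and HSCs, averaged over cultures, was -0.0035 with a 95% interval of -0.20 to 0.19 (adjusted p = 0.981, limma), and its sign changed with the library left out. Its ranges thus overlapped between the populations that differed in Dntt, Il7r and Rag2.

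Ebf1 (chr11:44617317-45008091, + strand) reached at most 0.143 FPKM. It stood at 0 and 0.0570 FPKM in LSK cells without RBCs, at 0.0717 and 0.0169 in LSK cells with RBCs, at 0.0676 and 0 in HSCs cultured alone and at 0.143 and 0.0825 in HSCs cultured with RBCs. Neither Ebf1 nor Rag1 passed the filter, so neither was tested against the threshold. Pax5, which acts with EBF1 in B cell commitment, was at 0 in all libraries without RBCs and in both HSC libraries with RBCs.

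Over both cultures the HSC mean was 1.46% of the LSK mean for Dntt, 1.68% for Il7r, 5.78% for Rag2, 11.99% for Satb1, 14.7% for Ly6d, 77.0% for Cd27 and 100.1% for Tcf3. Within LSK cells the order of levels in FPKM was Cd27, then Dntt and Tcf3, then Satb1, Ly6d, Il7r and Rag2, then Ebf1 and Rag1. In that order Dntt and Tcf3, Satb1 and Ly6d, Ly6d and Il7r, Ly6d and Rag2, Il7r and Rag2, and Ebf1 and Rag1 had overlapping ranges over the 4 libraries. In HSCs Cd27 and Tcf3 again stood highest, Satb1, Ly6d and Dntt overlapped near 1 FPKM, and Rag2, Ebf1, Il7r and Rag1 stayed at or below 0.287 FPKM. For Dntt, Il7r, Rag2, Satb1, Ly6d and Cd27 no LSK library overlapped an HSC library. Over all 12003 genes tested, 13.6% lay higher in all LSK libraries than in any HSC library. For each of these 6 genes an exact two-sided permutation test over cell types within cultures gave p = 0.0556, the smallest that its 36 arrangements allow, and for Tcf3 it gave p = 1.0.

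**Figure D3:**
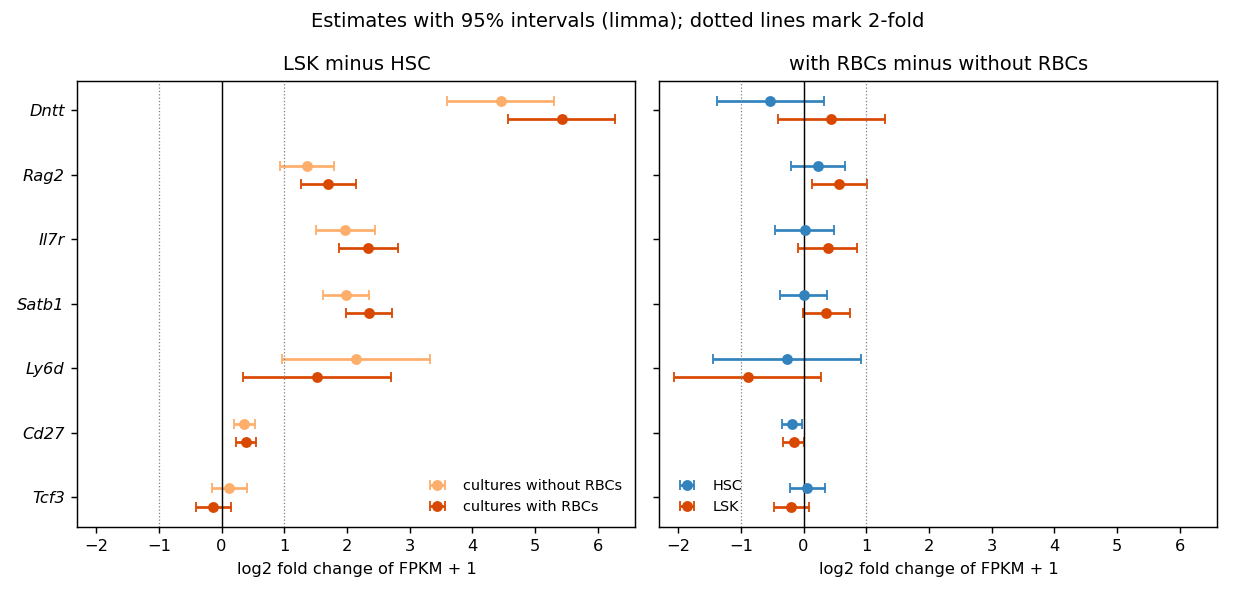
Log2 fold changes of FPKM + 1 (x axis) with 95% intervals from limma for the 7 genes that passed the filter, LSK minus HSC on the left and with RBCs minus without on the right. Points are estimates from 2 libraries against 2, and dotted lines mark 2-fold. On the left Dntt reaches 4.45 and 5.42 while Tcf3 straddles 0, and on the right no estimate reaches 2-fold in either direction.

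The second comparison asked whether RBCs moved these genes. None of the 7 tested genes was called in HSCs, in LSK cells or in the average of both, against 0.775%, 1.01% and 0.75% of all genes tested in these comparisons (limma, adjusted p under 0.05 and at least 2-fold). At an unadjusted p under 0.05 there was 1 gene in HSCs (Cd27), 1 in LSK cells (Rag2) and 2 in the average (Cd27 and Rag2), where 13.7%, 18.6% and 18.6% of all genes passed. The estimates used the same libraries as the comparison of cell types and are not independent of it.

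Rag2 was higher with RBCs in both populations, without overlap. The log2 change was 0.23 ± 0.193 (SE, adjusted p = 0.691, limma) in HSCs and 0.57 ± 0.193 (adjusted p = 0.156) in LSK cells, and averaged over cell types it was 0.40 ± 0.136 (adjusted p = 0.144). In reads, corrected for depth, Rag2 was 4.80 times as frequent with RBCs in HSCs (20 against 4 reads, 95% interval 1.61 to 19.3) and 1.73 times in LSK cells (229 against 153 reads, 1.41 to 2.14). The exact permutation test over RBCs within cell types gave p = 0.0556, the smallest possible, and 7.61% of all genes tested were higher with RBCs without overlap in both populations. Both counting intervals lay above 1, whereas the test over libraries did not pass after adjustment.

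Cd27 was lower with RBCs in both populations, also without overlap. Its log2 change was -0.19 ± 0.0732 (SE, adjusted p = 0.29, limma) in HSCs and -0.16 ± 0.0732 (adjusted p = 0.289) in LSK cells. Its permutation p was again 0.0556, and 6.97% of all genes tested were lower in this way. Dntt moved by -0.53 ± 0.378 (adjusted p = 0.635) in HSCs, where both libraries with RBCs lay below both without (true of 21.8% of all genes tested), and by 0.44 ± 0.378 (adjusted p = 0.592) in LSK cells, where the libraries overlapped. Il7r moved by 0.02 ± 0.208 (adjusted p = 0.99) in HSCs and by 0.39 ± 0.208 (adjusted p = 0.359) in LSK cells. Satb1 moved by less than 0.01 in HSCs, with a 95% interval of -0.37 to 0.37, and by 0.37 ± 0.163 (adjusted p = 0.272) in LSK cells, where its libraries with RBCs lay above those without (true of 24.2% of all genes tested).

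Ly6d moved in LSK cells by -0.89 ± 0.523 (SE, adjusted p = 0.403, limma), from 96 reads without RBCs to 45 with them, a depth-corrected ratio of 0.543 with a counting interval of 0.372 to 0.781. The lower mean rested on 1 of the 2 libraries with RBCs, which had 10 reads against 35 in the other. In HSCs Ly6d moved by -0.26 ± 0.523 (adjusted p = 0.905), and Tcf3 by 0.06 ± 0.123 (adjusted p = 0.905). In LSK cells Tcf3 moved by -0.19 ± 0.123 (adjusted p = 0.449). On the scale of FPKM + 1 the 95% intervals still allowed changes of over 2-fold for Dntt and Ly6d in both populations. By a narrow margin they did so for Rag2 in LSK cells, but not for Il7r, Satb1, Cd27 or Tcf3. That scale compresses changes of genes near 0, such as Il7r and Rag2 in HSCs. In reads, the counting intervals of Il7r (6 against 5 reads, 0.293 to 4.77) and Rag2 (1.61 to 19.3) in HSCs did allow over 2-fold.

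The difference between the RBC effects in HSCs and in LSK cells was tested directly, and 0 of the 7 genes were called (limma, and 0 had an unadjusted p under 0.05), against 0.108% of all genes called and 12.5% with an unadjusted p under 0.05. The largest estimate was that of Dntt, -0.97 ± 0.534 (SE, adjusted p = 0.495), with a 95% interval of -2.17 to 0.23. For Ly6d it was 0.64 ± 0.740 (adjusted p = 0.777), which is also the test of whether its contrast between cell types differed between cultures. For Il7r, Rag2 and Satb1 it was -0.37, -0.34 and -0.37, with adjusted p of 0.661, 0.663 and 0.566.

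Genes with the most similar profile over the 8 libraries were found by the root mean square difference of centred log2(FPKM + 1) values. This scale compresses the fold changes of weak genes, so genes near each other on it can differ in fold change. Il7r and Satb1 were each other's nearest gene among all genes tested, with a difference of 0.129. Their ratios of LSK to HSC mean FPKM over both cultures were 59.4 and 8.34. Next to Satb1 came Tcf7 (0.144), which encodes the T lineage factor TCF1, and Clec2i (0.173). Next to Il7r came Dok3 (0.151) and Atp8b4 (0.162). The genes nearest to Rag2 were Stom (0.114), Gm13031 (0.128) and Tlr7 (0.171), an innate sensor of RNA. Nearest to Dntt, at larger distances, were Ctsg (0.502), a granule protease of myeloid cells, Cd300lb (0.557) and Ccl3 (0.584), a chemokine. Nearest to Ly6d were Clec4e (0.459), Cyp11a1 (0.566) and Nkg7 (0.570). These are descriptions over 8 libraries that share their groups, and the named genes include lymphoid and myeloid genes.

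Other genes of the early lymphoid program were taken from lists by role. The shares of all genes called higher in LSK cells, 1.62% without RBCs and 2.61% with RBCs, are the background of each count that follows, and the lists were chosen with earlier results known. As with the members, a weakly expressed gene passed the filter only where it was high. These counts therefore describe the listed genes and are not rates for genes of their kind. Of all 78 tested genes of these lists, 1 (Lat) passed the test of a change of the difference between cultures, so a call in 1 culture does not show that the cultures differed. Of 19 tested early lymphoid progenitor genes, 5 were higher in LSK cells without RBCs and 7 with RBCs, and none was lower past the threshold, with list medians of 0.31 and 0.52 on the log2 scale against 0.0085 and 0.0075 for all genes. Flt3, the receptor that marks multipotent progenitors with lymphoid potential, measured 18.7 and 22.5 FPKM in HSCs and 97.3 and 89.1 in LSK cells without RBCs, a log2 difference of 2.13 ± 0.140 (SE, adjusted p = 3.19e-05, limma). With RBCs its difference was 2.39. Cd52 differed by 2.06 and 1.68 without and with RBCs, Ccr9 by 1.87 and 1.48, and Ly86 by 1.43 and 2.36, all called in both cultures. Ccr7 (1.16) and Notch1 (1.08) were called with RBCs only, where their differences without RBCs were 0.52 and 0.67, and the change of the difference between cultures did not pass for either (adjusted p = 0.497 and 0.438, limma). Ccr7 reached 1 FPKM only in the LSK libraries with RBCs (2.06 and 1.38), so it passed the filter only through the group where it was called. The Ccr7 call was lost without the second HSC library with RBCs (0.99, adjusted p = 0.0658). Ikzf1, which encodes Ikaros, differed by 0.31 (adjusted p = 0.0731) and 0.40 (adjusted p = 0.0202) without and with RBCs, under 2-fold.

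Of 12 tested B cell commitment genes, 3 were higher in LSK cells without RBCs and 4 with RBCs, and none was lower past the threshold. Irf8, a transcription factor of B, dendritic and monocytic cells, stood at 6.19 and 5.48 FPKM in HSCs and 38.5 and 46.7 in LSK cells without RBCs, and differed by 2.67 and 3.001 without and with RBCs. Blnk, a linker of B cell receptor signalling, differed by 1.88 and 2.05. Vpreb1, part of the surrogate light chain, differed by 1.18 without RBCs and by 0.90, below the threshold, with RBCs. Blk (1.95) and Spib (1.04) were called with RBCs, and without RBCs their differences were 1.15 and 0.20, a change between cultures with adjusted p of 0.552 and 0.329 (limma). Spib reached 1 FPKM only in the LSK libraries with RBCs (1.57 and 1.45), and Blk only in LSK libraries. Both thus passed the filter only where they were high. The Spib call was kept in 12 of 14 alternatives, in which its difference ran from 0.80 to 2.60, and was lost without the first HSC library with RBCs (0.80, adjusted p = 0.0738). The Vpreb1 call was lost without the first HSC library without RBCs, at 0.91. Of 9 tested T cell commitment genes, 2 were higher without RBCs and 3 with RBCs. Tcf7 differed by 2.16 and 2.47, and Cd7 by 1.56 and 2.03. Lef1 differed by 1.496 with RBCs and by 0.96, just under 2-fold, without them (adjusted p of the change between cultures 0.367, limma).

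Of 7 tested genes for E proteins and their inhibitors, the Id proteins, none was called in either culture. Id1 was lower in LSK cells by 0.96 and 0.83 on the log2 scale (adjusted p = 0.0134 and 0.0159, limma), under 2-fold, and Id2 differed by 0.28 (adjusted p = 0.209) and 0.21 (adjusted p = 0.289). Of 14 tested genes of interleukin-7 receptor signalling, none was called without RBCs and 1, Socs3, with RBCs (1.04, and 0.91 and no longer called without the second LSK library with RBCs). Of 12 tested genes that repair and join the ends cut by RAG, none was called without RBCs and 1, Nhej1, with RBCs (1.22, and 0.88 without). Of 5 tested genes of CD27 signalling none was called, and Traf2, an adaptor of the receptor, differed by 0.21 (adjusted p = 0.191) and 0.09 (adjusted p = 0.538). Siva1 was lower in LSK cells by 0.38 and 0.63 (adjusted p = 0.0123 and 0.000732), under 2-fold, and Cd70, the ligand of CD27, was at 0 in all 8 libraries.

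**Figure D4:**
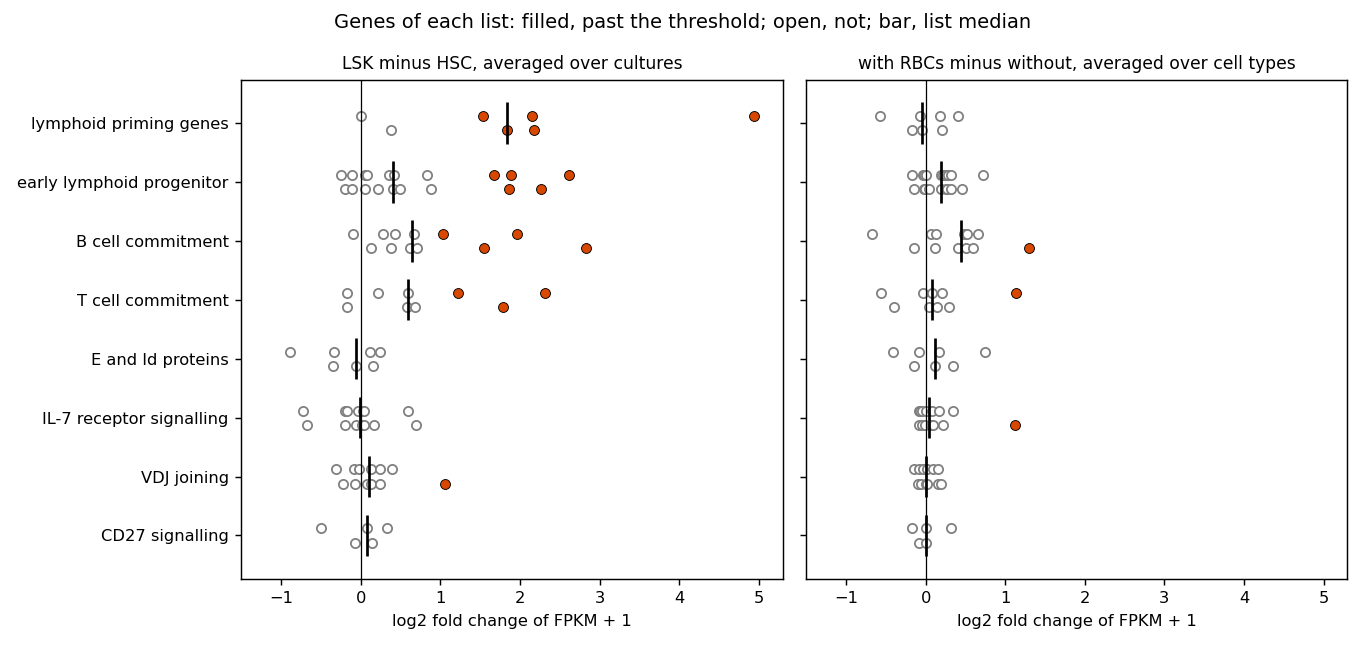
Log2 fold changes of FPKM + 1 (x axis) of single genes in the lymphoid priming set and in 7 lists of related genes, LSK minus HSC averaged over cultures on the left and with RBCs minus without averaged over cell types on the right. Filled points passed the threshold, open points did not, and black bars are list medians, 1.83 for the lymphoid priming genes on the left and -0.05 on the right.

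Of the 78 tested genes of these lists, the cultures with RBCs had 1 called higher in HSCs (where 0.633% of all genes tested were) and 3 called higher in LSK cells (where 0.9% were). Irf4, a transcription factor of B cells and activated lymphocytes, rose in HSCs from 0.227 and 0.700 FPKM to 2.46 and 2.49 (1.27 ± 0.217, SE, adjusted p = 0.017, limma) and in LSK cells from 0.731 and 0.382 to 3.24 and 2.53 (1.32 ± 0.217, adjusted p = 0.0134). No library without RBCs reached 1 FPKM, so Irf4 passed the filter only through the libraries with RBCs. Its calls describe this gene and are not independent of the filter. The Irf4 call was kept in 12 of 16 alternatives in each population, and its adjusted p rose to as much as 0.105 in HSCs and 0.098 in LSK cells. It was lost in HSCs without either library with RBCs or the first without RBCs, in LSK cells without either library with RBCs or the second without RBCs, and in both without the filter on low values. Lef1 rose in LSK cells from 1.66 and 1.52 FPKM to 6.21 and 5.56 (1.41 ± 0.158, adjusted p = 0.00206), and changed by 0.87, under 2-fold, in HSCs. Socs3, a feedback inhibitor of cytokine receptors, rose in LSK cells from 7.93 and 9.90 FPKM to 24.1 and 28.9 (1.48 ± 0.134, adjusted p = 0.000687).

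Markers of other cells moved with the groups. The summed FPKM of 7 neutrophil markers was 4.61 to 7.53 in HSCs without RBCs, 41.6 to 247 in HSCs with RBCs, 121 to 210 in LSK cells without RBCs and 347 to 552 in LSK cells with RBCs. Of these 7 markers, 3 were called higher in LSK cells than in HSCs without RBCs, 2 with RBCs, and 2 were called higher with RBCs in each population. The 9 mature B cell markers summed to 81.3 to 87.1 FPKM in HSCs and 128 to 129 in LSK cells without RBCs, and to 97.0 to 113 and 175 to 178 with RBCs, and 6 of the 9 stayed under 1 FPKM everywhere. The 7 mature T cell markers summed to 10.8 to 12.8 FPKM in HSCs and 16.8 to 17.9 in LSK cells without RBCs, and to 13.8 to 14.5 and 15.8 to 16.2 with RBCs, with 4 of the 7 under 1 FPKM everywhere. Of 6 markers of plasmacytoid dendritic cells, 4 (Siglech, Cd300c, Irf8 and Ccr9) were called higher in LSK cells in both cultures, and Irf8 and Ccr9 also stand in the lists above. Their sum was 108 to 142 FPKM in HSCs and 174 to 208 in LSK cells without RBCs, and 127.5 to 150.3 and 221 to 226 with RBCs. Of 3 tested NK cell markers, Nkg7 and Klrd1 were called higher in LSK cells in both cultures, and the 5 listed summed to 41.6 to 63.3 FPKM over the HSC libraries and 138 to 191 over the LSK libraries.

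Of 5 tested monocyte or macrophage markers, 2 (Csf1r and Ccr2) were called higher in LSK cells without RBCs and 3 with RBCs, and 1 was lower without RBCs. With RBCs 1 of these rose in HSCs (Csf1r) and 2 in LSK cells (Csf1r and Ccr2). The 6 with a row summed to 402 to 432 FPKM in HSCs and 273 to 362 in LSK cells without RBCs, and 327 to 328 and 493 to 603 with RBCs. Of 6 tested red cell markers, 3 rose with RBCs in HSCs and 1 in LSK cells, 2 were called lower in LSK cells than in HSCs with RBCs, and the 8 with a row summed to 282 to 338 FPKM in the HSC libraries and 111 to 184 in the LSK libraries. Of 5 platelet markers, Pf4 alone was called, lower in LSK cells than in HSCs with RBCs and lower with RBCs in LSK cells, and the 5 summed to 180 to 225 FPKM over HSC and 75.8 to 197 over LSK libraries. As background for these marker counts, 2.66% and 3.61% of all genes tested were called between the cell types without and with RBCs, in either direction. The limit that a weakly expressed gene passed the filter only where it was high holds for the markers too. For RBCs the shares were 0.775% in HSCs and 1.01% in LSK cells. The part of all these markers in the values of the lymphoid priming genes was not tested.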

How the data were processed

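RNA of CD45+ cells, sorted after 1 day from cultures of mouse HSCs or LSK cells that did or did not hold RBCs, was sequenced from full-length SMART-Seq HT cDNA and Nextera XT libraries, 2 per group. Groups and replicate numbers were taken from the sample labels. The authors deposited 1 table of FPKM values per library, normalized for transcript length and mapped fragments, with replicates kept separate; the submitters' processing notes name TopHat2 2.1.1, Bowtie2 2.2.8, SAMtools 0.1.18, Cuffdiff 2.2.1 and the mm10 build. The annotation and strand setting are not given in the sources used here.

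Here log2(FPKM + 1), with a pseudocount of 1, was fitted for the 12003 genes with at least 1 FPKM in at least 2 libraries, with limma 3.58.1 in R 4.3.3 and its mean-variance trend, as 1 fit of the 4 groups (4 residual and 5.18 prior degrees of freedom), without a replicate block. Every adjusted p comes from limma with Benjamini-Hochberg adjustment over all genes tested, and calls also needed a 2-fold change. Single genes were tested by exact two-sided permutation within strata (36 arrangements, smallest p 0.0556); 2 libraries against 2 cannot go below 0.333. Ratios of reads carry exact 95% intervals. The fit was tested on simulated data.

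The members, the gene lists and the motifs were chosen with earlier results of these data known. All members are named. From the related lists, genes called in at least 1 comparison are named (at most 6 per list, largest change first), otherwise the most abundant, and some genes of these lists and of the markers are not reported here; each called member is given its 3 nearest genes. Notch1, Ikzf1, Pax5, Cd70, B230118H07Rik, Mir8113 and the marker genes were added beside these, with their values known. Positions came from GENCODE M21 (GRCm38). Motifs were searched in the 250 bases before each RefSeq start rather than in the whole 300-base windows planned, so that bases after that start were left out. By the GENCODE positions, some windows still lie within the gene. These are the Il7r window, the Ebf1 windows, all Satb1 windows but the printed one, and part of the Tcf3 window.

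The alternatives were 2 other pseudocounts, 2 other filters, 2 scalings, no mean-variance trend, no fold threshold, a replicate block and leaving out each library in turn, in which the lone library of a group was assumed to vary like the other groups. Running the related genes under these alternatives was added after the data were seen.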

Additional observations from a re-analysis of the deposited data

Results flagged for a closer look

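Lat, which encodes the linker for activation of T cells and belongs to the T cell commitment list, responded to RBCs in opposite directions in the 2 populations. In HSCs it stood at 14.6 and 15.4 FPKM without RBCs and at 21.3 and 23.6 with them. In LSK cells it stood at 20.9 and 19.6 FPKM without RBCs and at 13.3 and 12.3 with them. The difference between both RBC effects was 1.17 ± 0.143 on the log2 scale (SE, adjusted p = 0.0189, limma). In each population the libraries with and without RBCs did not overlap. Such separation of 2 libraries from 2 was common. In the directions opposite to Lat, 21.8% of all genes tested lay lower with RBCs in HSCs and 24.2% lay higher in LSK cells. The difference between the RBC effects on Lat kept its call in only 7 of 16 alternative analyses, in which it ranged from 1.103 to 1.242.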

How the results depend on the processing

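With 2 libraries per group and unknown absolute depth, small changes of weakly expressed genes cannot be seen, and fold changes of genes near 0 depend on the pseudocount. Dntt, Il7r, Rag2 and Satb1 kept their calls between LSK cells and HSCs in all 16 alternatives in each culture; Ly6d did not, as described in the report. The number of called members did not move by more than 1.5 times under any alternative. Over all genes, the calls between LSK cells and HSCs without RBCs numbered 319, but 485 with a pseudocount of 0.1 and 1707 without the fold threshold, which also took those with RBCs from 433 to 2923. The averaged count went from 326 to 641 and 3944 under the same settings. The RBC effect in HSCs had 93 calls, 50 without the filter and 304 without the fold threshold. That in LSK cells had 121, 70 without the filter, 414 without the fold threshold, 62 and 71 without the first or second LSK library with RBCs and 77 without the first without RBCs, and the average of both had 90, 135 with a pseudocount of 0.1 and 645 without the fold threshold. The difference between the RBC effects had 13, and between 1 (no mean-variance trend) and 20 (quantile normalization). No member was called for the RBC effects or their difference in any of these. Both scalings shifted the median of all genes by at most 0.0534. Same-numbered libraries did not deviate together (correlations of -0.067 to 0.095). This cannot tell whether they shared mice or cultures, which the labels do not say. A replicate block changed no call of a member, and left Dntt at 4.45 without RBCs.

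Signs changed only in differences that were never called, and the cause was not tested. Quantile normalization gave -0.07 for the RBC effect on Il7r in HSCs, and upper quartile scaling gave 0.0006 for Satb1. A pseudocount of 0.1 gave 0.3657 for Rag2 and -0.0326 for Ly6d in the difference between the RBC effects. With each library left out in turn, the LSK minus HSC difference of Tcf3 ran from -0.0273 to 0.2731 without RBCs and from -0.0786 to 0.0716 on average. The RBC effect in HSCs ran from -0.0269 to 0.0585 for Il7r, from -0.0749 to 0.0733 for Satb1, from -0.8919 to 0.3763 for Ly6d and from -0.09 to 0.2103 for Tcf3. The RBC effect on Dntt ran from -0.2542 to 1.1331 in LSK cells and from -0.3926 to 0.301 on average, and that on Tcf3 from -0.1413 to 0.0088 on average. The difference between the RBC effects ran from -0.0822 to 1.3542 for Ly6d and from -0.1163 to 0.0571 for Cd27.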
